A study of Mus musculus with 69 samples.

Results

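Slc26a4 encodes pendrin, an exchanger that moves chloride, bicarbonate, iodide and thiocyanate across the apical membrane of epithelial cells. It was followed here in the lungs of mice given titanium dioxide nanoparticles. Its members were the probes whose transcript accession maps to Slc26a4, which gave 1 probe and 1 gene of 17639 genes measured. The gene was chosen by its own log2 ratios on these arrays, which differed widely between mice of the same group, so its values are given as a description and no test was made on them. The arrays came from 69 female C57BL/6 mice, 5 to 7 weeks old on arrival and acclimatised for 1 to 3 weeks. Each mouse received a single instillation into the trachea of 18, 54 or 162 µg of NRCWE-001 or NRCWE-002, dispersed in water with 2% serum, or of the vehicle alone, which the sample titles call water. NRCWE-001 is the unmodified particle, listed by the study as uncharged, and NRCWE-002 is the modified one, listed as positively charged. Lungs were taken on day 1 or day 28, and each of the 14 groups held 5 mice, apart from the 4 vehicle mice of day 28.

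Pendrin is best known in the inner ear, in the kidney and in the thyroid, where it passes iodide into the follicle. In the airways it is made by surface epithelial cells, where it sets the pH and thickness of the airway fluid and delivers thiocyanate to peroxidases that turn it into an antimicrobial oxidant. It is induced there by interleukin-4 and interleukin-13, and by interleukin-17, and it is known from models of asthma and of bacterial infection.

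The 250 bases before the start of transcription of Slc26a4 are shown because the genes most like it in expression were compared over the same window. They lie on the minus strand of chr12:31559985-31560234 (GRCm38.p6, RefSeq), written 5′ to 3′. Capitals mark a TATAAA, 31 to 26 bases before the start, and a match to GGG and CC with 5 bases between them, a loose form of the site of NF-kB, 113 to 104 bases before it.
Slc26a4: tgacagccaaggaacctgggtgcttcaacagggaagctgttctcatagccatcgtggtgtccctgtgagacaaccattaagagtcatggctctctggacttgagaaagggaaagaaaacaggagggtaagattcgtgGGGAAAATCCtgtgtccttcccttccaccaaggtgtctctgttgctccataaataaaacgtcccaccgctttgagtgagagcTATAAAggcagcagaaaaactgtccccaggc
On either strand, TATAAA occurred in 12.4% of the 32851 promoters of this length in the table and the NF-kB letters in 45.8%. TTC and GAA with 4 bases between them, a form bound by STAT6, and with 3 bases between them, a form bound by other STAT factors, occurred in 5.85% and 7.02% of promoters and were not found in this window.

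Levels are given as log2 ratios, lung RNA (Cy5) over a commercial mouse reference RNA (Cy3) on the same array, with 1 mouse per array. RNA came from a piece of frozen lung, so fewer cells of a type and less RNA per cell cannot be told apart. The probe of Slc26a4 was well above background in both channels on 69 of 69 arrays. Its sample intensity ran from 199 to 13616 units, with a median of 794.5, over a local background of 52.5 to 90.5. The reference was dim at this probe, 42 to 135 units over 17 to 41.5. On 15 of 18 slides, the array with the highest sample intensity at this probe also had the highest reference intensity, and differences at 162 µg on day 1 are therefore also given in the sample channel alone. Over all genes, the Pearson correlation of pairs of arrays ran from 0.777 to 0.991, with a median of 0.96. The arrays lay on 18 slides that hold several groups each, and values with slide as a fixed block are given where they change a call or a direction. At 162 µg on day 1 that block also called more of all genes than the fit without it, as counted in the section on processing.

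In the vehicle mice of day 1, the log2 ratio of Slc26a4 was 3.56, 2.10, 2.32, 1.87 and 1.61. In the vehicle mice of day 28 it was 2.59, 1.84, 2.53 and 2.08. Without particles, Slc26a4 thus lay between 1.61 and 3.56 in 9 mice. Across the 60 exposed mice it ran from 0.55 to 6.19, a 50.0-fold span. Of these, 28 lay above all 9 vehicle mice. Against the vehicle mice of the same day, 32 exposed mice lay above all of them, 16 on each day, and 17 lay below all of them, 7 on day 1 and 10 on day 28. Some of these differ in the sample channel alone. At 162 µg of NRCWE-001 on day 28 the mouse at 1.36 had 8.97 there, against 8.69 to 9.20 in vehicle mice. At 54 µg of NRCWE-001 on day 1 the mouse at 1.25 had 8.386, against 8.382 in the lowest vehicle mouse. Others moved below all vehicle mice, such as the mouse at 1.94 (8.42) at 18 µg of NRCWE-002 on day 28.

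On day 1 at 18 µg, Slc26a4 was near the vehicle level for both particles. For NRCWE-001 the 5 mice gave 2.17, 2.13, 2.10, 2.53 and 0.91. For NRCWE-002 they gave 2.70, 1.47, 1.56, 2.08 and 0.99. The group means were 0.32 ± 0.44 (SE, n = 5 and 5) and 0.53 ± 0.45 below the vehicle, and both groups overlapped it. At 54 µg of NRCWE-001 the mice gave 5.32, 4.28, 4.67, 1.25 and 1.43. Of these, 3 lay above every vehicle mouse and the other two below every one, and the group mean was 3.39 ± 1.91 (SD) against 2.29 ± 0.76 in the vehicle. At 54 µg of NRCWE-002 the values were 4.71, 3.83, 3.30, 5.10 and 4.01, and 4 of 5 lay above every vehicle mouse, with a mean difference of 1.90 ± 0.47 (3.73-fold).

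At 162 µg on day 1 the level was high in nearly every mouse. For NRCWE-001 the values were 4.83, 4.79, 5.00, 5.41 and 1.34, a mean 1.98 ± 0.82 above the vehicle (3.95-fold). The first 4 lay close together above every vehicle mouse, and the last lay below every one. For NRCWE-002 the values were 5.06, 5.18, 5.36, 5.08 and 3.65, a mean 2.57 ± 0.46 above the vehicle (5.95-fold). This was the only group in which all 5 exposed mice lay above all vehicle mice of their day, a pattern held by 3.53% of all genes in that comparison. In the sample channel alone, the differences at 162 µg came to 2.25 ± 0.85 (NRCWE-001) and 2.91 ± 0.53 (NRCWE-002). That channel was taken after both channels were normalized together, so it is not free of the dim reference.

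**Figure D1:**
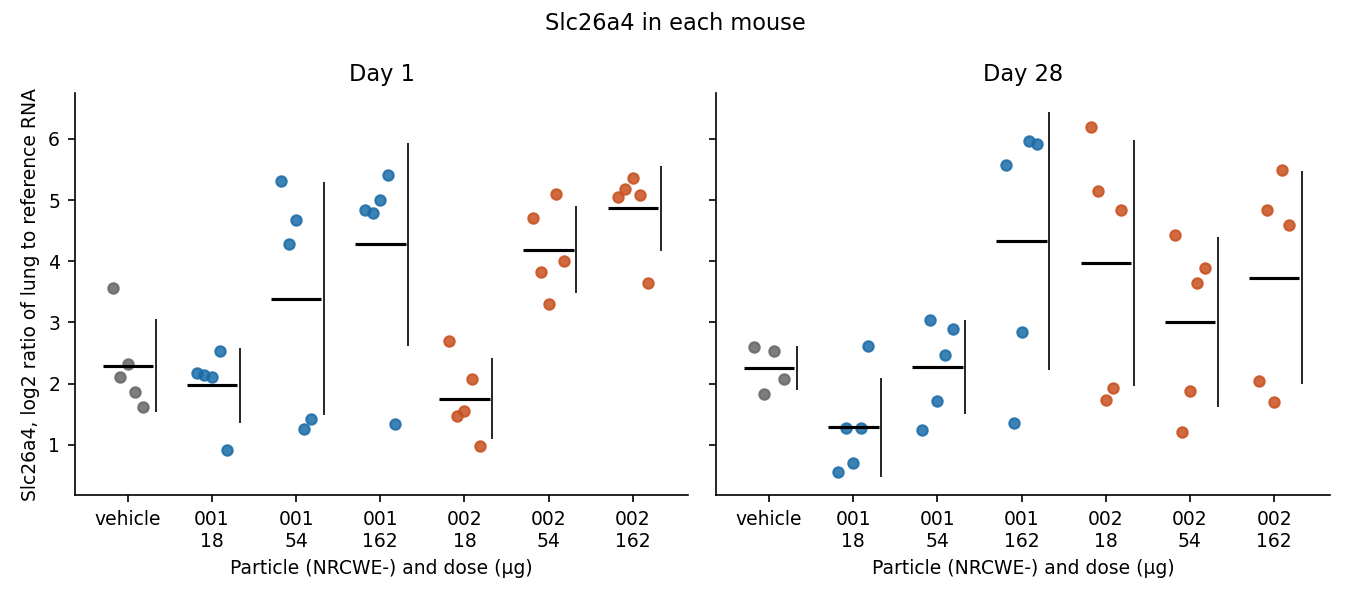
The log2 ratio of Slc26a4 to reference RNA is plotted for each mouse by particle and dose in µg, on day 1 (left) and day 28 (right). Points are mice, horizontal bars are group means and vertical bars are 1 SD to each side. Vehicle mice lie between 1.61 and 3.56, and most exposed groups on day 28 hold mice both near and far above that range, up to 6.19.

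On day 28 the mice within most exposed groups lay far apart, and the means of NRCWE-002 did not follow the dose. At 18 µg of NRCWE-001 the values were 0.55, 1.27, 0.71, 1.28 and 2.61. Of these 5 mice, 4 lay below every vehicle mouse of the day, and the mean was 0.97 ± 0.41 (n = 5 and 4) below the vehicle mean. At 54 µg they were 1.24, 3.05, 1.72, 2.46 and 2.89, with a mean difference of 0.01 ± 0.39. At 162 µg they were 5.58, 1.36, 2.84, 5.96 and 5.92. Here 4 of 5 lay above every vehicle mouse, 3 of them higher than any mouse of day 1, and the mean difference was 2.07 ± 0.96 (4.21-fold).

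For NRCWE-002 on day 28 each dose split its mice. At 18 µg the values were 6.19, 5.15, 1.74, 1.94 and 4.85, and the highest value of all 69 mice was thus in a mouse of the lowest dose. At 54 µg they were 4.44, 1.22, 1.88, 3.64 and 3.89, and at 162 µg they were 2.05, 4.83, 1.70, 5.49 and 4.59. In each of these groups 3 of 5 mice lay above every vehicle mouse and 1 lay below every one. The mean differences were 1.71 ± 0.92 at 18 µg, 0.75 ± 0.65 at 54 µg and 1.47 ± 0.80 at 162 µg. All 12 differences of both days are read against 1 vehicle group per day, so they are not independent of each other.

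By group mean, the order from the top was NRCWE-002 at 162 µg on day 1 (4.87 ± 0.69, SD), NRCWE-001 at 162 µg on day 28 (4.33 ± 2.11) and NRCWE-001 at 162 µg on day 1 (4.27 ± 1.66). At the bottom stood the groups at 18 µg, NRCWE-001 on day 1 (1.97 ± 0.62), NRCWE-002 on day 1 (1.76 ± 0.65) and NRCWE-001 on day 28 (1.29 ± 0.81). Every step between neighbours in the order of the 14 groups was smaller than the pooled SD of the pair. Between the particles, the largest difference was at 18 µg on day 28, where NRCWE-002 was 2.69 ± 0.97 above NRCWE-001. At the other 5 matched doses and days the difference ran from -0.60 to 0.80, and at all 6 the mice of the particles overlapped.

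Slides bear on several of these values. With slide as a fixed block, the differences at 162 µg on day 1 came to 2.16 (NRCWE-001) and 2.75 (NRCWE-002), and 1.85 and 1.27 on day 28. On day 1, each of the 3 slides that held NRCWE-001 at 162 µg with a vehicle array put the exposed mouse higher, by 1.27 to 2.69. The 2 such slides for NRCWE-002 gave 3.19 and 3.75. On day 28 the 1 slide for NRCWE-001 gave 3.74. For NRCWE-002 at 162 µg on day 28 the 2 slides that held both groups put the exposed mouse lower, by -0.55 and -0.38, against a mean difference of 1.47 over all mice. The same slides gave 3.60 and -0.34 at 18 µg of NRCWE-002 on day 28, and 1.84 and -0.20 at 54 µg. On the second of them the mice at 18, 54 and 162 µg had 1.74, 1.88 and 1.70, against 2.08 in its vehicle mouse. At 18 µg of NRCWE-002 on day 1 the direction turned, from -0.53 without the block to 0.94 with it. For NRCWE-001 at 18 µg on day 28, both slides gave lower values in the exposed mouse, -1.29 and -1.26. The low mouse at 162 µg of NRCWE-001 on day 1 (1.34) shared a slide with a low mouse at 54 µg of NRCWE-001 (1.43), with the lowest mouse at 54 µg of NRCWE-002 (3.30) and with a mouse at 18 µg of NRCWE-002 (2.08), all of day 1 and without a vehicle array. Slide 11 held NRCWE-001 at 162 µg (1.36) and 18 µg (0.71) on day 28 and NRCWE-002 at 18 µg on day 1 (1.47). Slide 12 held NRCWE-002 at 54 (3.83) and 18 µg (1.56) and NRCWE-001 at 18 (0.91) and 54 µg (1.25), all on day 1. Neither slide had a vehicle array, and all but the mouse at 3.83 lay below every vehicle mouse of their day. On these slides 79.7% to 87.8% of spots were well above background in the sample channel, against 61.4% to 80.0% elsewhere. The part of any of these slides in these values was not tested.

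**Figure D2:**
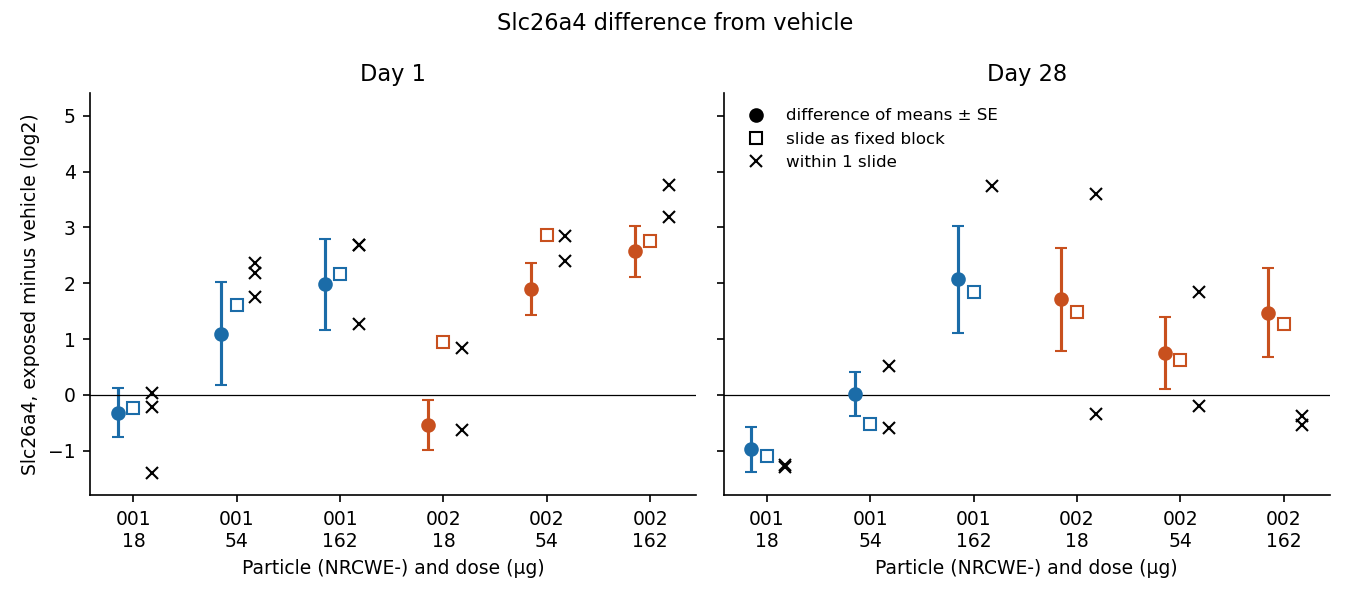
The difference of Slc26a4 from vehicle mice of the same day, on the log2 scale, is plotted for each particle and dose in µg. Filled circles with bars are differences of group means ± SE, open squares have slide as a fixed block, and crosses are differences within 1 slide. At 162 µg of NRCWE-002 on day 28 the crosses, -0.55 and -0.38, lie on the other side of 0 from the mean difference of 1.47.

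In all, 38 of 17638 other genes had a Pearson r with Slc26a4 over 0.8 across the 60 exposed arrays, where the median gene had an r of 0.01 and the range from the 5th to the 95th percentile was -0.32 to 0.47. These arrays share groups, slides and the reference RNA, and the correlations are given as a description. The 10 closest genes fall into a few roles. Of secreted proteins, Lcn2 (lipocalin 2, which withholds iron from bacteria) had r = 0.90 and Ccl9, a chemokine for myeloid cells, had r = 0.89. Of enzymes, Il4i1, an L-amino acid oxidase first found as induced by interleukin-4, led with r = 0.91. Ch25h, which makes 25-hydroxycholesterol, had r = 0.88 and the protease Ctsk (cathepsin K) had r = 0.85. Noxo1, the organiser subunit of an epithelial NADPH oxidase, had r = 0.88. Of signalling proteins, Sting1, the adaptor of cytosolic DNA sensing, had r = 0.89 and Nfkbie, an inhibitor of NF-kB, had r = 0.87. The membrane proteins Ly6f and Ms4a6d had r = 0.88 and r = 0.86. Just outside the 10 stood Slc7a8, with r = 0.848 against 0.849 for Ctsk.

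Spearman's rho of the 10 genes was 0.84 to 0.90, and r without the 2 mice farthest from the median of Slc26a4 was 0.83 to 0.91. The correlation was also seen among mice of the same group. With group means removed, r was 0.93 for Lcn2, 0.89 for Ccl9 and 0.79 for Nfkbie, the lowest of the 10. With slide means removed it was 0.83 to 0.91. For each particle and day alone (15 arrays each), r ran from 0.74 to 0.98. In the 9 vehicle mice, with group means removed, it ran from -0.58 for Ly6f to 0.60 for Lcn2, over a much narrower span of Slc26a4.

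These genes were picked for their correlation over the same mice, so mice that are low in both follow from the choice and are shown as a description. At 162 µg of NRCWE-001 on day 1, Lcn2 was 4.79, 4.36, 4.73, 4.70 and 0.96, against 0.87 to 1.28 in the vehicle mice. At 54 µg it was 4.31, 4.12, 4.14, 0.88 and 1.18. The last mouse of the first group and the last 2 of the second are those in which Slc26a4 lay below every vehicle mouse. Il4i1 at 162 µg was 2.53, 2.21, 2.46, 2.58 and 0.87, with the same mouse lowest. Across the 12 exposed groups, the lowest mouse in Slc26a4 was also the lowest in 6 (Ccl9) to 10 (Sting1) groups, depending on which of the 10 genes was read, and the highest mouse was also the highest in 6 (Sting1 and Nfkbie) to 11 (Ch25h).

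The level of Lcn2 beside a high Slc26a4 differed between groups of day 28. At 18 µg of NRCWE-002, where Slc26a4 reached 6.19, 5.15 and 4.85, Lcn2 in the same mice was 3.08, 2.41 and 2.31. At 162 µg of NRCWE-001, where Slc26a4 was 5.58, 5.96 and 5.92, Lcn2 was 3.97, 4.40 and 4.34. Mice of day 1 with Slc26a4 at 4.67 or more had Lcn2 at 4.14 to 4.97. Saa3, an acute phase protein, was 0.13, -1.57 and -1.94 in the 3 mice of NRCWE-002 and 0.40, 1.08 and 2.07 in the 3 of NRCWE-001, against 3.72 to 5.15 in the 4 high mice of NRCWE-001 at 162 µg on day 1. Saa3 had r = 0.78 with Slc26a4 over the exposed mice.

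**Figure D3:**
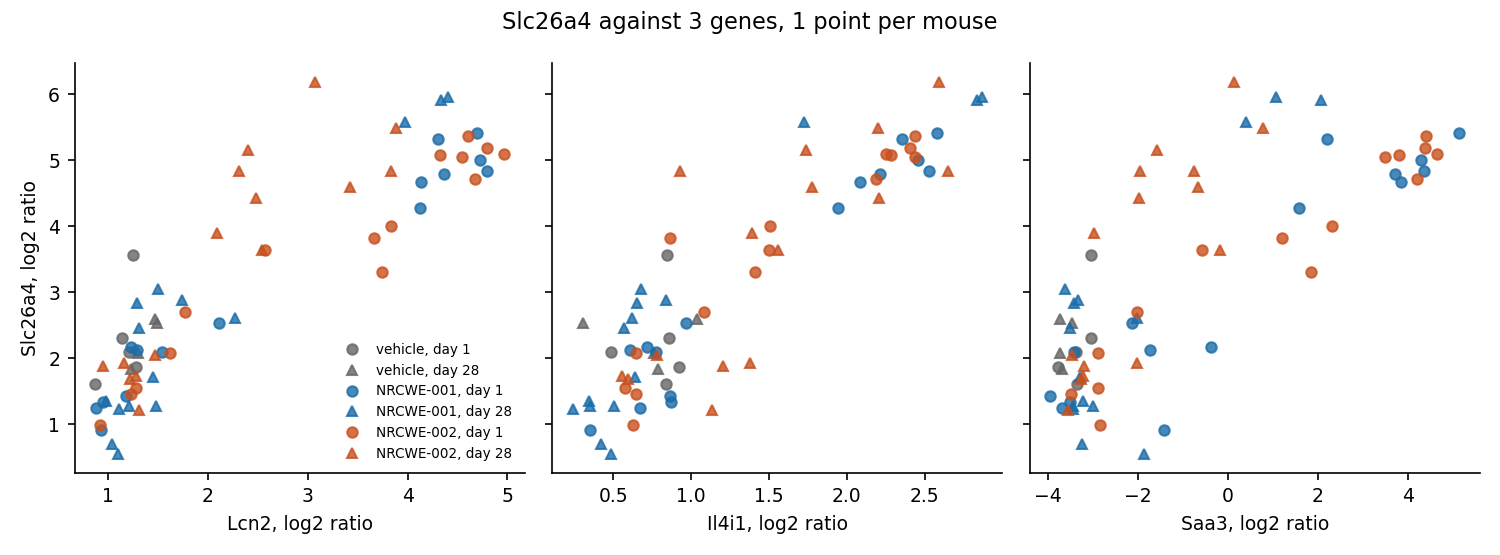
The log2 ratio of Slc26a4 is plotted against that of Lcn2 (r = 0.90 over the 60 exposed arrays), Il4i1 (r = 0.91) and Saa3 (r = 0.78), with 1 point per mouse, colours for particles and the vehicle, circles for day 1 and triangles for day 28. The triangle with the highest Slc26a4, 6.19, lies at 3.08 for Lcn2 and 0.13 for Saa3, while the circles with Slc26a4 at 4.67 or more lie at 4.14 or more for Lcn2.

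The 250 bases before the start are shown for the 2 closest genes, from the same table and build, with matches to the same letters in capitals. Il4i1 lies on the plus strand of chr7:44836038-44836287, and Lcn2 on the minus strand of chr2:32387740-32387989.
Il4i1: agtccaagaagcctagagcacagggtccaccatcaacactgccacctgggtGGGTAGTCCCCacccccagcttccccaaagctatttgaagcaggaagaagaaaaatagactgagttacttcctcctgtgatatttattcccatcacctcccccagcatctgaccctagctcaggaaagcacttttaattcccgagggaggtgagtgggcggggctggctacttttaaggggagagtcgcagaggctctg
Lcn2: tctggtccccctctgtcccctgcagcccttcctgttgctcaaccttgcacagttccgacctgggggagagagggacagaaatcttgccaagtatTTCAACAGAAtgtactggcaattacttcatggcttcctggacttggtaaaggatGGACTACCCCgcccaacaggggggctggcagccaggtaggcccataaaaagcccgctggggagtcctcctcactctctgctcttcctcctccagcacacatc
The capitals in Il4i1 are overlapping matches to the NF-kB letters on opposite strands. Those in Lcn2 are the STAT6 letters, then the NF-kB letters on the opposite strand. Of the 10 genes, 8 had a promoter in the table, and 6 of these held the NF-kB letters, 3 TATAAA and 1 the STAT6 letters, while 0 held the form of other STAT factors. Sting1 and Ms4a6d had no entry.

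At the other end, the lowest r was -0.74 for Cavin2, a coat protein of caveolae, -0.72 for Sdc2 (syndecan-2, a heparan sulfate proteoglycan) and -0.70 for Epop, a partner of the Polycomb complex. Cavin2 ran from 2.64 to 3.79 in exposed mice and from 3.33 to 3.67 in vehicle mice, so its span was far smaller than that of Slc26a4. With each array centred on its median in place of loess, r was -0.34 for Cavin2, -0.27 for Sdc2 and -0.59 for Epop.

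**Figure D4:**
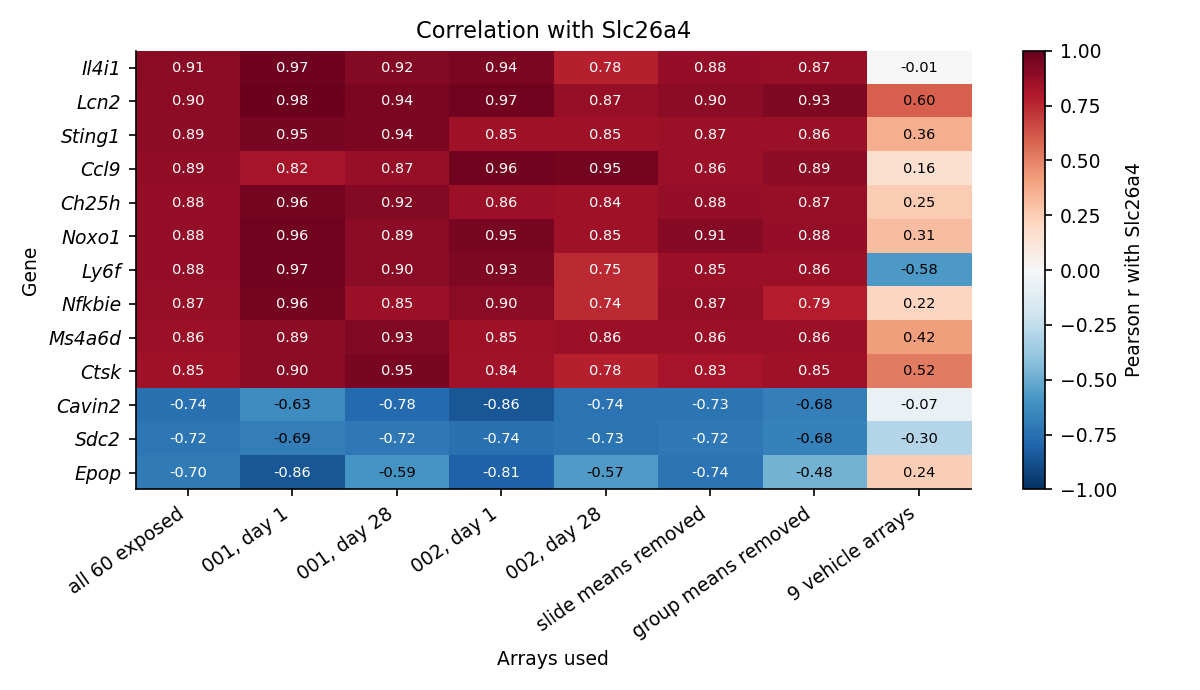
Pearson r with Slc26a4 is given by colour and number for the 10 genes most like it and the 3 least like it (rows), over all exposed arrays, each particle and day, after removal of slide or group means, and in the vehicle arrays (columns). The 10 genes stay at 0.74 or above in every column of exposed arrays, while the vehicle column runs from -0.58 to 0.60.

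Slc26a4 was not tested, and none of the other measured members of its family was called. Of 10 others, 7 were measured: Slc26a2 (sulfate), Slc26a5 (prestin, the motor of outer hair cells), Slc26a6 (chloride and bicarbonate), Slc26a7, Slc26a9 (an airway chloride channel), Slc26a10 and Slc26a11. Limma, with Benjamini-Hochberg adjustment over all genes, called 0 of 7 in any of the 12 contrasts with the vehicle, where the share of all genes called was 0.59% or less, and their changes lay between -0.69 and 0.44. The lowest adjusted p was 0.288. Their r with Slc26a4 ran from -0.17 for Slc26a11 to 0.38 for Slc26a9. Slc26a5 and Slc26a7 were well above background on 7 arrays each, so little can be read from them. Slc26a1, Slc26a3 and Slc26a8 were not measured.

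Genes that carry ions and acid alongside pendrin were not called in any contrast without a slide block, where 0.59% or less of all genes were. With slide as a fixed block 1 fell at 162 µg of NRCWE-001 on day 1, the chloride channel Clcn2 (-0.41, adjusted p = 0.00161 against 0.107 without the block), named after its value was seen. Of 17 listed transport genes 16 were measured, with a median change at 162 µg of 0.02 for NRCWE-001 and 0.00 for NRCWE-002 on day 1, against 0.01 over all genes. Cftr, the chloride and bicarbonate channel of the apical membrane, changed by -0.25 to 0.22 over the 12 contrasts (lowest adjusted p = 0.726), yet had r = 0.63 with Slc26a4. Ano1, the calcium-activated chloride channel, had r = 0.03. Of 10 genes of peroxidases and iodide, 7 were measured and 0 called. Lpo, the airway peroxidase that uses thiocyanate, had changes of up to 0.16 and r = 0.10. Duoxa2, the maturation factor of the oxidase that supplies peroxide, was well above background on 21 arrays and had r = 0.21. Duox2 was not measured.

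Of 19 measured cytokines and receptors upstream of pendrin, 1 was called, the cytokine Il1b, which with slide as a fixed block was also called at 54 µg of each particle on day 1. It rose at 162 µg on day 1 by 1.62 ± 0.36 for NRCWE-001 and by 1.67 ± 0.36 for NRCWE-002 (n = 5 and 5). The SE here and for the listed genes below is that of the limma fit, in which all groups share 1 estimate of the spread. The adjusted p was 0.0148 and 0.0111 by limma. All 5 mice of each group lay above all vehicle mice, as they did for 1.97% and 3.53% of all genes. Among all genes, 0.527% and 0.59% were called in these comparisons, 0.408% and 0.476% as higher. Il4 and Il13, the cytokines best known to induce pendrin, changed by no more than 0.16 in any contrast, with lowest adjusted p of 0.943 and 0.559. They had r = 0.12 and r = -0.04 with Slc26a4, against 0.72 for Il1b. Il17a was well above background on 0 arrays and was not tested.

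In contrasts where 0.59% or less of all genes were called, 0 of 17 measured genes of the response to interleukin-4 and interleukin-13 were called. Their median change at 162 µg on day 1 was 0.17 for NRCWE-001 and 0.27 for NRCWE-002. Of the 17, 14 and 16 lay above 0. At 18 µg of NRCWE-002 on day 28, the group that held the mouse with the highest Slc26a4, it was 0.86 with 16 of 17 above 0, and limma called 0 of 17639 genes there, with 1065 at an unadjusted p under 0.05. Marker lists of other cell types also had medians well above 0 in the same group, 1.59 for heart muscle (8 of 8 above 0), 1.29 for adipocytes (8 of 8) and 1.32 for airway secretory cells (9 of 11, of which 2 genes are also in the interleukin list), and 0 of them called. The summed signal of the heart muscle list was 5093 to 48630 there against 2716 to 19982 in the vehicle mice, and that of the adipocyte list 5168 to 89592 against 3686 to 8929. Their part in the list's median was not tested. The median r of the list with Slc26a4 was 0.34.

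Of 19 measured genes of the response to interleukin-17 and interleukin-22, 6 rose at 162 µg on day 1 for each particle and 0 fell. Among all genes, 0.408% (NRCWE-001) and 0.476% (NRCWE-002) were called as higher. With slide as a fixed block 12 and 6 of the list rose, and more of all genes were called as well, as counted below. The median change of the list was 0.99 for NRCWE-001 and 0.73 for NRCWE-002. The acute phase genes led. Saa3 rose by 6.12 ± 1.14 for NRCWE-001 and 6.43 ± 1.14 for NRCWE-002. The adjusted p was 0.00312 and 0.00206. Saa1 rose by 3.86 ± 0.66 and 3.76 ± 0.66, and Saa2 by 2.69 ± 0.45 and 2.56 ± 0.45. Transcripts of Saa1 and Saa2 are near-identical, so their probes may share signal, and Saa2 was well above background on 63 of 69 arrays. Lcn2, which is also among the genes most like Slc26a4, rose by 2.75 ± 0.61 and 3.02 ± 0.61, with adjusted p = 0.0141 and 0.00723.

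At 54 µg of NRCWE-002 on day 1, 4 genes of this list rose, Saa1, Saa2, Saa3 and Lcn2, where 0.0624% of all genes were called. Without replicate 1 or replicate 4 of that group, 0 were called, and with slide as a fixed block 7 were. The block also called 4 genes of the list at 54 µg of NRCWE-001, Saa1, Saa2, Saa3 and Lcn2. Without it, 0 of all genes were called there and 803 had an unadjusted p under 0.05. For both particles at this dose, the block called more of all genes as well, as counted below. On day 28 the list had 0 genes called at any dose, where 0.193% of all genes were called at 18 µg of NRCWE-001, 0.0454% at 162 µg of NRCWE-001 and 0.00567% at 162 µg of NRCWE-002, and its median at 162 µg was 0.34 for NRCWE-001 and 0.21 for NRCWE-002. Saa3 was then 3.03 ± 1.21 and 2.18 ± 1.21 above the vehicle, with adjusted p = 0.415 and 0.768. Whether the changes of the days differ was not tested.

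Bicluster 3, a list that the study drew from other lung disease data and that holds Slc26a4, had 16 other members, all measured. At 162 µg on day 1 all 16 had a change above 0 for each particle, with medians of 0.49 and 0.64, and 1 was called, Socs3, a feedback inhibitor of cytokine signalling. It rose by 0.69 ± 0.15 for NRCWE-001 and 0.61 ± 0.15 for NRCWE-002. The adjusted p was 0.0131 and 0.0338, and the latter was 0.14 with slide as a fixed block. That block called 5 members for NRCWE-001 and 0 for NRCWE-002. Without the block, 0.408% (NRCWE-001) and 0.476% (NRCWE-002) of all genes were called as higher there. On day 28 the medians were 0.36 and 0.42 and 0 were called. The median r of these members with Slc26a4 was 0.65, the highest of the 7 lists, and ran up to 0.89 for Ccl9.

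Leaving out 1 array moved the calls on the 99 measured genes of the 7 lists. At 162 µg of NRCWE-001 on day 1, 8 were called with all arrays, 5 without replicate 3, 3 without replicate 4 and 16 without replicate 5, the mouse with low Slc26a4. At 162 µg of NRCWE-002 on day 1, 8 were called with all arrays, 12 without replicate 5, 5 without replicate 3 of the exposed group or replicate 4 of the vehicle, and 4 without replicate 2 or replicate 4 of the exposed group. On day 28, where 0 were called with all arrays, 3 were called at 162 µg of NRCWE-001 without replicate 3, 3 at 18 µg of NRCWE-002 without replicate 3 and 1 at 162 µg of NRCWE-002 without replicate 1.

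**Figure D5:**
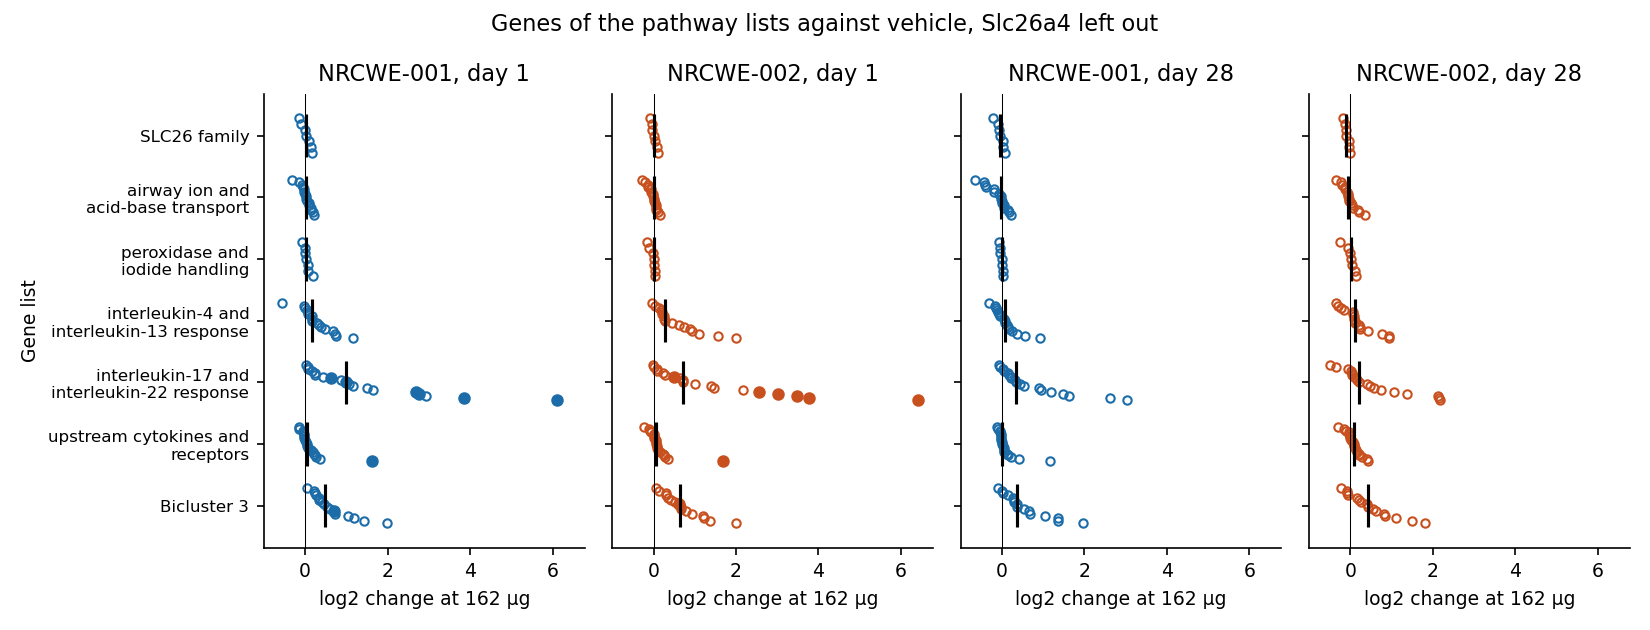
Log2 changes at 162 µg against vehicle mice of the same day are plotted for every measured gene of the 7 lists (rows), for each particle and day (panels). Filled points were called by limma, open points were not, and black bars are list medians. Filled points on day 1 lie in the lists of interleukin-17 and interleukin-22 (6 for each particle), upstream cytokines (1) and Bicluster 3 (1), and day 28 has none.

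Markers of cell types that could carry Slc26a4, or come with inflammation, were read on the same arrays. The 13 measured markers of ionocytes and intercalated cells had 0 calls. Their summed signal in the sample channel was 4741 to 5287 in vehicle mice of day 1 and 3526 to 4797 for NRCWE-001 and 3144 to 4795 for NRCWE-002 at 162 µg. Their mean log2 ratio in these groups was 0.54, 0.49 and 0.52, and over the exposed arrays it had r = 0.33 with Slc26a4. Foxi1, the factor that defines ionocytes, was well above background on 5 of 69 arrays. Of 11 airway secretory markers 0 were called. Their median change at 162 µg on day 1 was 0.55 for NRCWE-001 and 0.74 for NRCWE-002. Scgb1a1, the secretoglobin of club cells, had changes of -0.75 to -0.11 over the contrasts (lowest adjusted p = 0.489) and r = -0.08 with Slc26a4. Others of the list ran higher, with changes up to 2.36 for Scgb3a1, 2.31 for the mucin Muc5b, 2.49 for Bpifa1 and 1.91 for Bpifb1 and r of 0.17, 0.31, 0.09 and 0.27, named after their values were seen. The mean log2 ratio of the list had r = 0.25 with Slc26a4.

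Of 9 measured neutrophil markers, 2 rose at 162 µg on day 1 for NRCWE-001 (Csf3r and Cxcr2, receptors of neutrophils) and 0 were called for NRCWE-002. Among all genes, 0.408% (NRCWE-001) and 0.476% (NRCWE-002) were called as higher. With slide as a fixed block 4 and 0 of the markers rose, and more of all genes were called as well, as counted below. The summed signal of the markers was 13891 to 25801 in vehicle mice, 20240 to 68913 for NRCWE-001 and 17408 to 47545 for NRCWE-002. The mean log2 ratio of the neutrophil list had r = 0.59 with Slc26a4 over exposed arrays, and that of 6 macrophage markers, with 0 called at 162 µg, had r = 0.61. The part of these cells in the level of Slc26a4 was not tested. Of the thyroid list, Tg (thyroglobulin) was detected on 69 arrays with r = -0.30 and Dio1, a deiodinase, on 69 arrays with r = 0.39, and the other 4 of 6 measured markers were well above background on fewer than 35. Heart muscle markers had a median change of 1.99 at 162 µg of NRCWE-002 on day 28 with 0 of 8 called, and r = 0.14 with Slc26a4.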

How the data were processed

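Lung RNA of 69 mice was hybridised against a commercial mouse reference RNA on 2-colour Agilent whole mouse genome arrays, 1 mouse per array, with no dye swap. The deposited scanner files hold the median spot intensity and local background of each channel on a linear scale, which the authors obtained with Feature Extraction from Agilent and left unnormalized. The table that the authors deposited holds log2 ratios after LOWESS within arrays, sample over reference, and served as an alternative. Its correlation over probes with the ratios computed here was 0.988 to 0.995, and the medians of its columns were -0.0586 to -0.00264.

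The intensities were corrected with normexp (offset 50) and normalized by loess in limma 3.58.1 (R 4.3.3). The normexp fit left out 0 to 470 spots per array with an extreme local background (beyond 10 median absolute deviations). Control spots and the 62 to 240 outlier spots per array were left out. No spot was saturated (0 of all spots). Probes were named by accession through a RefSeq table of GRCm38.p6, used for symbols alone since the array follows another build. Of 41174 probes, 27479 matched a symbol. A probe was kept where the lung RNA was well above background on 4 or more arrays (36469 probes), and a gene was the median of its probes.

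Groups came from the labels. Limma fitted 14 group means over all arrays. Each dose was contrasted with the vehicle of its day, with Benjamini-Hochberg adjustment over 17639 genes and calls at an adjusted p under 0.05. The fit was tested on simulated data. Slc26a4 and the genes most like it are described without a test, apart from Lcn2 and Ccl9. Both are also members of the pathway lists and were tested there. Lcn2 also went through the check for outlying mice. The 7 pathway lists, the 11 marker lists and the genes themselves were chosen with earlier results of these data known. The genes named were Slc26a4, its family, a set list of pendrin-related genes, the 10 genes with the highest and the 3 with the lowest r, and up to 4 called genes per pathway list at 162 µg on day 1 or in any contrast on day 28. Clcn2, Csf3r, Cxcr2, Dio1, Slc7a8, Pigr, Cxcl5, Sftpd, Cidec, Scgb3a1, Muc5b, Bpifa1 and Bpifb1 fall outside this rule and were named after their values were seen. Slide was taken from the scanner files. The number of arrays limits the precision of every mean.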

Additional observations from a re-analysis of the deposited data

Results flagged for a closer look

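At 162 µg on day 1, replicate 5 of each particle was the lowest of its group and stood apart from the other 4 mice in 4 acute phase and antimicrobial genes. For NRCWE-001 the log2 ratio of that mouse was 0.96 in Lcn2, -0.70 in Saa1, 0.06 in Saa2 and -3.51 in Saa3. For NRCWE-002 it was 2.58 in Lcn2, 0.06 in Saa1, 0.50 in Saa2 and -0.57 in Saa3. The gap to the nearest mouse was 0.75 to 0.89 of the range of the group, above the limit of 0.71 set by Dixon for 5 values. This was the case in 8 of 24 combinations of a gene and a group. Chance marks about 1 in 20, but the 24 share mice, and Lcn2 is among the genes most like Slc26a4, so they are not independent. In these mice Slc26a4 was 1.34 and 3.65, also the lowest of each group. It was not put through this check, since the spread of its own ratios chose it.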

How the results depend on the processing

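The 12 differences of Slc26a4 from the vehicle stayed within 1 pooled SD in 78 of 84 other settings. The 6 exceptions concern slide. With slide as a fixed block, NRCWE-002 on day 1 gave 0.94 at 18 µg (0.50 with slide as a random block) and 2.86 at 54 µg. Within slides, the mean was 3.47 at 162 µg of NRCWE-002 on day 1, 3.74 at 162 µg of NRCWE-001 on day 28 and -0.46 at 162 µg of NRCWE-002 on day 28. At 54 µg of NRCWE-001 on day 28 the mean difference of 0.01 turned sign in 3 slide settings and without 1 mouse in 5 of 9 cases. Slc26a4 had 1 probe, so probes could not be compared. Of the 10 genes most like it, 9 were shared with the deposited ratios, 9 without background correction, 7 with median centring, 8 in the sample channel alone and 8 and 9 after removal of slide and group means. The last 3 settings and the sample channel for Slc26a4 were added after the data were seen.

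Counts of genes called moved with slide and with single mice. For all genes at 162 µg of NRCWE-001 on day 1 (93 called) there were 770 with the fixed block, 583 with the random block and 40 with median centring. For NRCWE-002 (104 called) there were 341, 512 and 37. At 54 µg of NRCWE-002 on day 1 (11 called) there were 245 and 194 with the blocks, 20 with the deposited ratios and 19 without background correction. On day 28, 18 µg of NRCWE-001 (34 called) gave 86, 126 and 18 with the blocks and median centring. At 162 µg on day 28, NRCWE-001 (8 called, and 1519 at an unadjusted p under 0.05) gave 0 with the fixed block. There, NRCWE-002 (1 called, and 1183 at an unadjusted p under 0.05) gave 15 with the random block and 0 with median centring. Where 0 genes were called without a block, the fixed and random blocks gave 132 and 78 at 54 µg of NRCWE-001 on day 1 and 4 and 1 at 18 µg. The fixed block gave 1 at 18 µg of NRCWE-002 on day 1, and at 54 µg of NRCWE-001 on day 28 the random block gave 3 and the deposited ratios 1. For the listed genes on day 1, the fixed and random blocks gave 5 and 6 at 54 µg of NRCWE-001 (0 called). The fixed and random blocks gave 19 and 19 at 162 µg of NRCWE-001 (8 called) and 9 and 10 at 54 µg of NRCWE-002 (4 called). The random block gave 18 at 162 µg of NRCWE-002 (8 called).

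Leaving out 1 mouse gave 14 (without replicate 4) to 291 (without replicate 5) genes at 162 µg of NRCWE-001 on day 1 and 24 (without replicate 2) to 211 (without replicate 5) for NRCWE-002. It gave 0 (without replicate 1) to 17 (without replicate 2) at 54 µg of NRCWE-002. On day 28 it gave 9 to 42 at 18 µg of NRCWE-001, without vehicle replicates 1 and 3. At 162 µg it gave 0 (without vehicle replicate 4) to 80 (without replicate 3) for NRCWE-001 and 0 (without replicate 2) to 69 (without replicate 1) for NRCWE-002. From 0 called, it gave 0 to 1 at 18 µg of each particle and 54 µg of NRCWE-001 on day 1 and at 54 µg of NRCWE-001 on day 28, and 0 to 12 (without replicate 3) at 18 µg of NRCWE-002 on day 28. Listed genes ranged from 3 to 16 at 162 µg of NRCWE-001, 0 to 4 at 54 µg of NRCWE-002 and 4 to 12 at 162 µg of NRCWE-002 on day 1. On day 28 they ranged from 0 to 3 at 162 µg of NRCWE-001 and 18 µg of NRCWE-002 and from 0 to 1 at 162 µg of NRCWE-002. In the fit with slide as a random block, the consensus correlation of arrays on the same slide was 0.469. The main calls, adjusted p and SE come from the fit without slide. Why slide and single mice moved these counts was not tested. No paired analysis was possible because replicate numbers follow the order of deposition and each mouse gave 1 array. Mice that share a slide were compared within slides, as given above.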

Other observations

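The marker lists not described above held 0 called genes at 162 µg of either particle on either day, apart from 1 adipocyte gene, Cidec, that fell at 162 µg of NRCWE-001 on day 1 with slide as a fixed block (-1.31, adjusted p = 0.00836 against 0.0515 without the block). Without the block, 0.59% or less of all genes were called in these contrasts. Median changes at 162 µg of NRCWE-001 and NRCWE-002 on day 1 were -0.04 and -0.07 for 8 ciliated cell markers, -0.07 and -0.02 for 8 alveolar type 2 markers and -0.11 and -0.01 for 7 lymphocyte markers. Those of 8 tracheal cartilage markers were 0.01 and 0.05, and of 8 adipocyte markers 0.06 and 0.21, against 0.01 over all genes. The mean log2 ratio of the alveolar type 2 list had r = 0.40 with Slc26a4 over the exposed mice, and its member Sftpd, the secreted collectin surfactant protein D, had r = 0.76. Pigr, the receptor that carries IgA into secretions, had r = 0.81 with Slc26a4, and Cxcl5, a neutrophil chemokine, had r = 0.84. Both were picked after their values were seen, and Cxcl5 was well above background on 35 arrays.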
